A study of Mus musculus with 75 samples.

Results

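The comparison followed the liver from weaning to young adulthood in mice whose mothers had received tributyltin (TBT), an organotin compound that activates the nuclear receptors RXR and PPAR gamma. It set 6 livers of 5 months, labelled low risk TBT (numbers 2, 3, 5, 6, 7 and 16), against 8 livers of 3 weeks, labelled TBT (numbers 1 to 8), all of sequencing batch 1. These are 14 of the 75 libraries in the count table, and 13 when the 3-week library number 4 is left out. All 14 came from wild-type C57Bl/6 mice labelled male, and both groups were exposed through the dam, which drank TBT up to weaning at a daily 0.5 mg/kg (3.07 µM in the water), so the groups differ in age and in the risk label but share the exposure. The 5-month mice had therefore been off TBT since weaning. The risk label, which the series title ties to liver tumour development, applies to the older mice only: the later risk of the 3-week livers is unknown, and how low risk was assigned is not given in the sources used here. Vehicle livers of the same batch (7 mice of 3 weeks, 7 mice of 5 months) served as the reference for the same span of age without TBT. The labels number the mice but name no litter or cage, so p-values measure the spread between these samples.

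Between weaning and adulthood the mouse liver stops growing by cell division, silences fetal and imprinted growth genes, and becomes sexually dimorphic. In adult males growth hormone is secreted in pulses, which activate the transcription factor STAT5 in bursts, and together with androgens this switches on male-biased genes and shuts off female-biased ones. Major urinary proteins (Mup), small lipocalins that carry pheromones into urine, are a leading product of the adult male liver.

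Library totals were 7.72 to 45.1 M counts at 5 months and 13.05 to 18.5 M counts at 3 weeks. The liver identity of the libraries was clear from albumin (Alb), at 96370 to 141041 CPM at 3 weeks and 65901 to 85046 CPM at 5 months, where CPM are counts scaled to library size with the trimmed mean of M values (TMM). The 3-week library number 4 went against its male label: its Xist level was 348 CPM, against at most 1.76 CPM in the other 13, and 4 Y-linked genes summed to 7.08 CPM, against at least 148.7 CPM. The 5-month library number 16 had 11.2% of its counts on mitochondrial genes, against 2.26 to 4.16% in the other 13. Each main result is given with all 14 libraries, and its value without number 4 follows where that library matters. Levels are bulk values, so fewer cells of a type and less RNA per cell cannot be told apart.

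Of 14069 genes tested, 1931 (13.7%) were higher and 1756 (12.5%) were lower at 5 months, 3687 (26.2%) in all, at an adjusted p under 0.05. Every adjusted p for a gene in the text comes from edgeR's quasi-likelihood test with Benjamini-Hochberg adjustment over all genes tested. Without the library labelled 3-week TBT 4, 1419 genes were higher and 1556 lower, and 2944 of these 2975 calls were shared with the full set. All 6 livers of 5 months lay above all 8 livers of 3 weeks for 4.04% of genes and below them for 5.71% (803 genes). Large changes were more often losses than gains: 988 genes fell and 481 rose by at least 1 on the log2 scale, and 177 fell and 88 rose by at least 3. The median log2 fold change over all genes tested was 0.058. The list members below are set against these shares.

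Male-biased liver genes rose almost as a block. Of 18 members on the list, 17 were higher at 5 months and none lower, with a median log2 fold change of 5.21 (5.07 without number 4), and for all 17 the groups did not overlap. Mup20, the male urinary protein that females recognise by smell (ENSMUSG00000078672, chr4:62050234-62054158, GRCm38), had a lowest, median and highest level of 15.9, 51.5 and 106.9 CPM at 3 weeks and 1785, 2210 and 4511 CPM at 5 months. The lowest adult liver was thus well above the highest weanling, a log2 fold change of 5.51 (SE 0.37, adjusted p = 4.01e-08, or 5.41 without number 4). Cyp4a12a, a fatty acid hydroxylase that needs androgens (chr4:115299046-115332815), was at 0, 0.0548 and 3.46 CPM at 3 weeks and at 49.4, 130.6 and 185.4 CPM at 5 months, a log2 fold change of 7.28 (SE 0.88, adjusted p = 6.96e-05). Its 3-week reads came mostly from numbers 1 and 2, at 3.46 and 2.64 CPM, while the other 6 livers held at most 0.0888 CPM. Reads of Cyp4a12a can be shared with its near-identical copies.

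The steroid-metabolising Hsd3b5 (chr3:98618634-98630252) moved from 0.46, 3.63 and 21.7 CPM to 153.9, 262 and 328.8 CPM, a log2 fold change of 5.34 (SE 0.69, adjusted p = 0.000112). Its lowest weanling was number 4 and its highest weanlings were numbers 8 and 7, at 21.68 and 14.46 CPM. Cyp2d9, a testosterone hydroxylase that was already present at weaning, was at 158.1 to 309 CPM and then at 655.6 to 1382 CPM, a log2 fold change of 2.39 (SE 0.19, adjusted p = 1.98e-07). C6, a component of the complement membrane attack complex, rose by 2.96 on the log2 scale (SE 0.16, adjusted p = 1.3e-09), from 39.5 to 64.1 CPM to 247.7 to 489.8 CPM. Susd4, a complement regulator, rose by 3.77 (SE 0.19). The member that did not pass was Selenbp2, with a log2 fold change of 0.59. Moxd1, a monooxygenase-like protein, was at 0 counts in 5 of 8 weanlings and at 1.395 CPM in number 1, and at 10.6, 55.9 and 510 CPM in the adults, so it was on in every adult but at levels far apart. Nat8f5, an N-acetyltransferase family gene, had no count in any weanling and 3.37 to 8.91 CPM in the adults, at least 254-fold higher against a floor of 3 counts over the 3-week group.

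The Mup cluster lies on chromosome 4, where the named Mup genes span chr4:60066469-62054158, and 26 of its 49 annotated genes and pseudogenes were tested. All 26 were higher at 5 months with no overlap between the groups. Mup genes share near-identical sequence, so their reads can be split among copies and the sum is the firmer measure. The summed Mup level was 65.3, 242.4 and 2018 CPM at 3 weeks and 14622, 19199 and 26049 CPM at 5 months, a mean difference of 6.09 on the log2 scale (exact two-sided permutation test, p = 0.000333, the smallest that 6 against 8 livers can give). Without number 4 the difference was 5.78. The adults were close to each other, while the weanlings spread widely: numbers 8, 7 and 2 were the highest at 2018, 1008 and 577 CPM. Among single genes Mup7 went from a median of 0.0256 CPM to 3627 CPM and Mup11 from 0.0292 CPM to 1024 CPM. Mup8 had no count in any weanling and was at least 404.6-fold higher against the floor. Mup1 had 2 counts over the 8 weanlings and 6210 over the 6 adults, a ratio of 3624 with a 95% counting interval of 1003 to 29930.

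**Figure D1:**
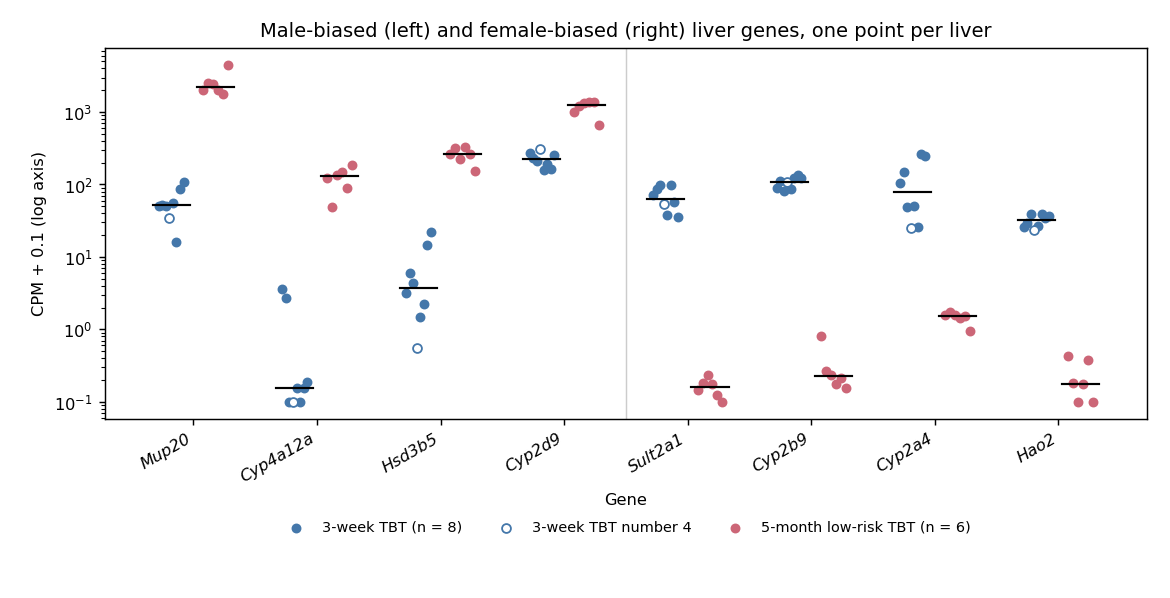
Levels of 4 male-biased and 4 female-biased liver genes in each liver, in CPM plus 0.1 on a log axis; filled points are livers, open circles are 3-week TBT number 4 and bars are group medians. For each of the 8 genes the 3-week and 5-month livers do not overlap: Mup20 goes from at most 106.9 to at least 1785 CPM, and Sult2a1 from at least 34.9 to at most 0.134 CPM.

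Female-biased liver genes went the opposite way. Of 16 members 12 were tested, 11 were lower at 5 months and none was higher, with a median log2 fold change of -5.90 (-6.08 without number 4) and no overlap between groups for 10. The female-biased genes were thus on in weanlings labelled male. Sult2a1, a sulfotransferase of steroids and bile acids (ENSMUSG00000078798, chr7:13796246-13837409), was at 34.9, 63.6 and 99.2 CPM at 3 weeks and at 0, 0.061 and 0.134 CPM at 5 months, a log2 fold change of -10.34 (SE 0.46, adjusted p = 1.63e-10). Its neighbour Sult2a2 had 5524 counts over the weanlings and 3 over the adults, a ratio of 1577 (95% counting interval 539.5 to 7652). Cyp2b9, a cytochrome P450 of the female liver (chr7:26173411-26210661), fell from 82.4, 108.9 and 136.3 CPM to 0.0568, 0.124 and 0.711 CPM (log2 fold change -8.87, SE 0.37, adjusted p = 5.81e-11). In both groups the livers were close together for Cyp2b9 apart from adult number 2, which held the 0.711 CPM.

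Cyp2a4, a testosterone 15-alpha-hydroxylase, spread widely at weaning, at 24.99, 78.03 and 259.9 CPM, and lay between 0.852 and 1.65 CPM in the adults (log2 fold change -6.37, SE 0.72, adjusted p = 3.18e-05). Hao2, a peroxisomal hydroxyacid oxidase, fell from 23.3, 31.9 and 39.0 CPM to 0, 0.0786 and 0.332 CPM (log2 fold change -7.45, SE 0.35, adjusted p = 2.25e-10). Hsd3b1, which makes progesterone and its relatives and lies near Hsd3b5 on chromosome 3 (chr3:98852194-98859794), fell while Hsd3b5 rose: 1842 counts over the weanlings became 1 count over the adults, a ratio of 1578 (95% counting interval 282.9 to 62360). Slc22a27, an organic anion transporter, fell by 6.81 on the log2 scale (SE 0.27), and Cyp3a16, a P450 of the young liver, by 7.09 (SE 0.67). Members of the Sult2a, Cyp2b and Cyp3a families share sequence, so their single values are uncertain. Acot3, an acyl-CoA thioesterase on the list, did not pass the test at a log2 fold change of 1.03.

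RefSeq's GRCm38.p6 table gave a promoter window, 250 bases before to 50 after the annotated start, for 8 of the 11 female-biased genes that fell. GTTAAT, a site for the liver factor HNF1, was in 4 of the 8 windows on either strand, against 7.2% of all 27025 windows and 4.57% of those of genes tested. These windows were those of Hao2, Cyp2a4 and the related genes Cyp2c40 and Cyp2c69. TTTGAA, a cell cycle element, was also in 4 of the 8, against 18.1% and 12.3%, so GTTAAT was not the only motif above its share. Nor was GTTAAT particular to this list. It was in 2 of 4 windows of bile acid genes that rose and 2 of 4 of periportal genes that fell. Of 22 windows of mitosis genes that fell, 2 held it. Hao2 is shown because its window (chr3:98893181-98893480, minus strand) holds 3 matches. GTTAAT is in capitals, and the capitals at the left end are its reverse complement.
Hao2: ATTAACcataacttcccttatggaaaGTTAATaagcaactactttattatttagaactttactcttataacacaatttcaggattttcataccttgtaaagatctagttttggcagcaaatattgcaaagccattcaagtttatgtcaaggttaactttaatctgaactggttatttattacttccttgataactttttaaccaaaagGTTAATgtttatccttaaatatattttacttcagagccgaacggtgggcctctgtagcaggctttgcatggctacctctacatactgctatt
The matches start at -250 (reverse strand), -224 and -42 from the annotated start. The STAT5 motif TTCNNNGAA was in none of the 8 windows and in 1 of 10 windows of male-biased genes (10.0%), against 8.47% of all windows, and a window without a match says nothing of sites elsewhere.

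The growth hormone axis changed unevenly. Of 16 members 2 were higher and 6 lower, the same counts without number 4. Ghr, the growth hormone receptor, rose from 272.8, 372.6 and 461.8 CPM to 538.6, 682.6 and 800.7 CPM (log2 fold change 0.92, SE 0.14, adjusted p = 0.00013), with no overlap. Stat5a and Stat5b, which carry the receptor's signal, fell by 0.47 (SE 0.10) and 0.44 (SE 0.15). The call of Stat5b was lost when any 1 of adult numbers 2, 3, 5 and 7 or weanling numbers 1, 2 and 6 was left out (adjusted p = 0.0529 to 0.0715). Igf1, the circulating growth factor that growth hormone induces in liver, was at 307.8, 573 and 1067 CPM and then at 521.8, 646.2 and 790.6 CPM, a difference that did not pass (log2 fold change 0.15, SE 0.21, adjusted p = 0.659). The 8 weanlings enclosed all 6 adults for Igf1.

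The IGF-binding proteins moved more than Igf1 itself. Igfbp1, a short-lived binding protein that insulin represses (chr11:7197782-7202546), was at 394.7, 827 and 2348 CPM at weaning and at 36.7, 64.1 and 129 CPM in adults, a log2 fold change of -3.64 (SE 0.43, adjusted p = 2.22e-05). Weanling number 5 held the 2348 CPM, and the next was at 1053 CPM. Igfbp3, the main carrier of IGF1 in blood, fell by 1.56 (SE 0.21, adjusted p = 4.63e-05).

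Most tested genes of the fetal liver and imprinted lists were lower in adults, and a few were higher. Of 15 fetal liver genes 10 were tested, and 7 were lower and 2 higher, the same without number 4. Both that rose, Zbtb20 (0.97) and Zhx2 (0.48), encode repressors of the Afp gene. H19, the imprinted long noncoding RNA (ENSMUSG00000000031, chr7:142575529-142578143), was at 41.1, 365.8 and 749.4 CPM at weaning and at 0, 0.347 and 0.991 CPM in adults, a log2 fold change of -9.93 (SE 0.81, adjusted p = 1.14e-06). Igf2, its imprinted neighbour and a fetal growth factor, was already too low to test at weaning, at most 0.61 CPM in any weanling and 0.398 CPM in adult number 16, with 0 counts in the other 5 adults. Gpc3, a cell-surface proteoglycan of fetal liver and liver tumours (chrX:52272426-52613950), fell from 22.2, 32.9 and 51.3 CPM to 0, 1.58 and 2.42 CPM (log2 fold change -4.62, SE 0.45, adjusted p = 3.62e-06). Afp, alpha-fetoprotein, was at 4.09, 9.53 and 35.8 CPM and then at 1.61, 4.08 and 4.599 CPM. Its groups overlapped and its log2 fold change was -1.96 (SE 0.53, adjusted p = 0.014, or -1.65 with adjusted p = 0.022 without number 4). Igf2bp3, an oncofetal RNA-binding protein, fell by 3.40 (SE 0.35).

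Of 16 genes of the imprinted growth network 13 were tested, and 10 were lower and 1 higher. Without number 4 the counts were 7 lower and 1 higher of 12 tested. Peg3, a zinc finger protein, fell from 30.1, 42.7 and 72.0 CPM to 4.31, 7.28 and 13.4 CPM (log2 fold change -2.57, SE 0.27, adjusted p = 5.91e-06). Grb10, an adaptor that restrains insulin and IGF signalling, fell by 2.55 (SE 0.17), Mest by 2.20 (SE 0.22), Plagl1, a zinc finger regulator of the network, by 1.83 (SE 0.32), and Cdkn1c, a cell cycle inhibitor, by 1.74 (SE 0.26). The groups did not overlap for 7 of the 10 genes that fell. The member that rose was Slc38a4, an amino acid transporter, by 0.53. The summed level of the list overlapped between the groups, with medians of 1705 CPM at weaning and 1686 CPM in adults. Meg3, an imprinted noncoding RNA, fell by 1.51 (adjusted p = 0.0429) and lost the call without weanling number 4 (adjusted p = 0.072), as it did without any 1 of adult numbers 2, 3, 5, 6 and 7 or weanling numbers 1, 2, 5 and 6 (adjusted p = 0.0505 to 0.0772).

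Every mitosis gene on the list was lower in adults. All 25 members passed the test, none was higher, the median log2 fold change was -3.74 and the groups did not overlap for 23. Without number 4 all 25 were still lower, with a median of -3.50. Mki67, the proliferation marker Ki-67 (chr7:135689784-135716361), was at 33.2, 83.5 and 227.5 CPM at weaning and at 2.55, 4.10 and 20.1 CPM in adults, a log2 fold change of -3.63 (SE 0.59, adjusted p = 0.000485, or -3.31 without number 4). The highest weanling was number 4 and the highest adult number 2. Ccnb1, cyclin B1, which with Cdk1 drives entry into mitosis, fell from 3.12, 12.9 and 28.4 CPM to 0.0568, 0.181 and 1.52 CPM (log2 fold change -4.63, SE 0.75, adjusted p = 0.000424). Cdk1 fell by 3.65 (SE 0.51), Top2a, a topoisomerase that untangles chromosomes, by 3.45 (SE 0.59), Kif20a, a kinesin of cytokinesis, by 3.93 (SE 0.51), Birc5, survivin, by 3.48 (SE 0.48) and Aurka, a spindle kinase, by 2.28 (SE 0.31). The summed level of the list was 131.7 to 903 CPM in weanlings, 903 CPM in number 4, and 16.9 to 78.3 CPM in adults, 78.3 CPM in number 2.

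DNA replication genes fell less steeply. Of 24 members 18 were lower and none higher, with a median of -1.44 (17 lower and a median of -1.10 without number 4). Mcm6, a subunit of the replicative helicase, was at 18.03, 32.1 and 83.2 CPM and then at 3.62, 4.90 and 8.39 CPM, with no overlap (log2 fold change -2.73, SE 0.35, adjusted p = 4.6e-05). Cdc6, which loads that helicase, fell by 4.08 (SE 0.65), and Rrm2, a ribonucleotide reductase subunit, by 2.25 (SE 0.37). Pcna, the replication clamp, was at 20.5 to 105.2 CPM and then at most 22.7 CPM, so its groups overlapped. The 105.2 CPM was number 4, and the log2 fold change of Pcna was -1.10 with it and -0.76 without it (adjusted p = 0.0166 and 0.0053).

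Promoter windows were found for 22 of the 25 mitosis genes. CCAAT, the box bound by NF-Y, was in 19 of the 22 (86.4%), against 37.9% of all windows and 38.9% of those of genes tested, on either strand. TTTGAA, the cell cycle homology region element, was in 16 of the 22 (72.7%), against 18.1% and 12.3%. Among 16 windows of the 18 replication genes that fell, CCAAT was in 13 (81.2%) and TTTGAA in 3 (18.8%), so the replication genes held the box but seldom the element. CCAAT was also in 8 of 9 windows (88.9%) of MHC genes that rose, so the box was not particular to genes that fell. It was in 0 of 6 windows of acute phase and iron genes that rose. A match is a description of letters, not of binding. The windows of Ccnb2, Cdc20 and Plk1, a cyclin, an activator of the anaphase-promoting complex and a mitotic kinase, are shown because each holds both motifs, with CCAAT and TTTGAA in capitals and no overlap between them. They are chr9:70421505-70421804 (minus strand), chr4:118437294-118437593 (minus strand) and chr7:122159185-122159484 (plus strand), GRCm38.p6.
Ccnb2: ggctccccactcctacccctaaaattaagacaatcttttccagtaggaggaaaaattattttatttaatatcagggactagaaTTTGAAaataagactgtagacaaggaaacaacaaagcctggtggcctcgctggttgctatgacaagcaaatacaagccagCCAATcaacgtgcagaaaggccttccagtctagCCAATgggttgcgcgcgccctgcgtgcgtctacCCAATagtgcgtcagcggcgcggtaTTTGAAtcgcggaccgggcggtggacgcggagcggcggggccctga
Cdc20: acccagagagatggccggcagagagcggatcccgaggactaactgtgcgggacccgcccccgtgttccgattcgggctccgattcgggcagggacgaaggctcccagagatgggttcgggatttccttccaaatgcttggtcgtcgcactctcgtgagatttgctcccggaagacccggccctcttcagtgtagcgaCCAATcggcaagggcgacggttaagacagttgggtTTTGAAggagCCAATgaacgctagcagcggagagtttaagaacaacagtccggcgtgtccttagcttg
Plk1: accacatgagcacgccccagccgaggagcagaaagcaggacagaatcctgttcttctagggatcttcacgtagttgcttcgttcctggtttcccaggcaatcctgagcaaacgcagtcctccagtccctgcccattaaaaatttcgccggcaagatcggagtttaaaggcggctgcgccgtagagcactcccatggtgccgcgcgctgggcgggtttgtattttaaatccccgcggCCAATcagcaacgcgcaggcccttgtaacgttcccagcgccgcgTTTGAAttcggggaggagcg
Ccnb2 has CCAAT starting at -87, -54 and -21 from the annotated start and TTTGAA at -167 and 5. Cdc20 has CCAAT at -53 and -8 with TTTGAA at -18, and Plk1 has CCAAT at -14 and TTTGAA at 31.

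**Figure D2:**
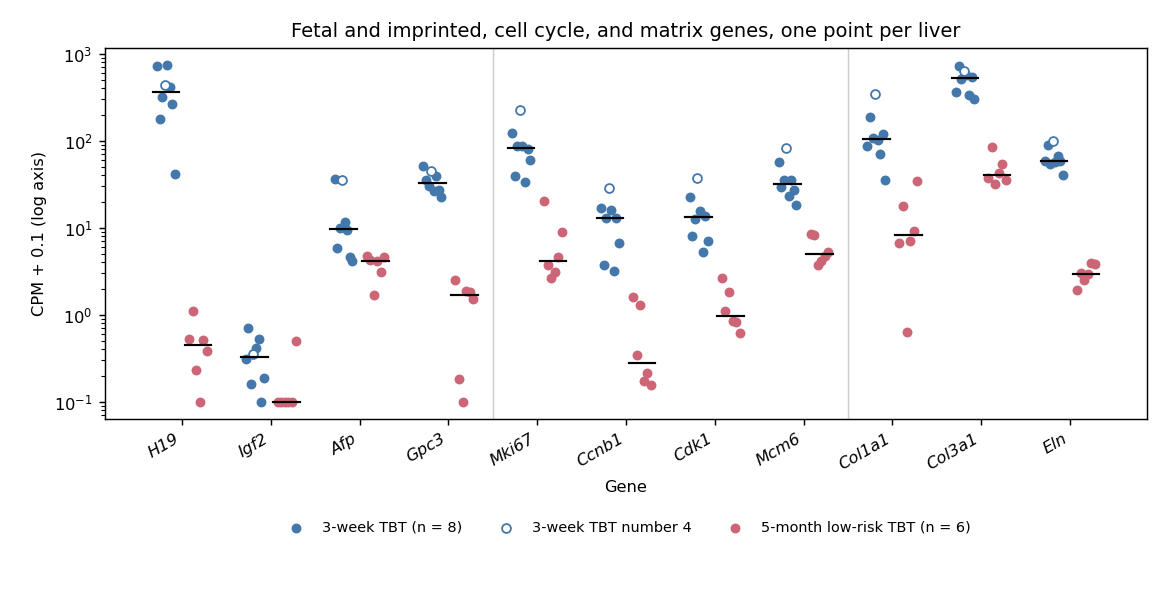
Levels of fetal and imprinted genes (left), cell cycle genes (middle) and matrix genes (right) in each liver, in CPM plus 0.1 on a log axis; filled points are livers, open circles are 3-week TBT number 4 and bars are group medians. H19 goes from at least 41.1 to at most 0.991 CPM and Eln from at least 40.6 to at most 3.84 CPM, while the Afp groups overlap.

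Genes of the matrix-producing cells fell with the cell cycle genes. Of 22 stellate cell and fibroblast genes 21 were tested, 13 were lower and none higher, with a median of -1.21 and no overlap for 10, and the same counts without number 4. Eln, elastin (chr5:134702593-134747323), was at 40.6, 58.2 and 99.3 CPM and then at 1.85, 2.86 and 3.84 CPM (log2 fold change -4.43, SE 0.24, adjusted p = 1.02e-09). Col3a1, a fibrillar collagen (chr1:45311538-45349706), was at 303.7, 525.7 and 716.8 CPM and then at 31.6, 40.2 and 84.1 CPM (log2 fold change -3.36, SE 0.26, adjusted p = 1.62e-07). Col1a1 fell as far, by 3.36, but with livers further apart (35.7 to 343.4 CPM, then 0.536 to 34.0 CPM, SE 0.68, adjusted p = 0.0027). Col4a2 of the basement membrane fell by 2.16 (SE 0.14) and Sparc, a collagen-binding secreted protein, by 2.18 (SE 0.14). Lrat, which stores vitamin A in quiescent stellate cells, and Des, their intermediate filament, did not pass (log2 fold changes -0.01 and -0.51). Of 31 collagen genes tested, 19 were lower and 2 higher.

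Endothelial genes fell by a smaller and more even amount. Of 15 members 12 were lower and none higher, with a median of -0.74 and no overlap for 10, the same counts without number 4. Their summed level was 906.5 to 1099 CPM at weaning and 442.8 to 683 CPM in adults. Stab2, a scavenger receptor of sinusoidal endothelium, was at 170.8, 197.3 and 271.7 CPM and then at 77.1, 92.2 and 115.5 CPM (log2 fold change -1.10, SE 0.12, adjusted p = 7.73e-06). Lyve1, a hyaluronan receptor, fell by 1.68 (SE 0.24), Cdh5, the cadherin of endothelial junctions, by 0.85 (SE 0.10) and Pecam1 by 0.72 (SE 0.14). Clec4g, a sinusoidal lectin, did not pass at -0.22.

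Blood and macrophage genes changed in part. Of 17 Kupffer cell and macrophage genes 6 were lower and none higher. Without adult number 6 the counts were 1 lower and 1 higher, and without weanling number 3 they were 4 and 1. Marco, a scavenger receptor that binds bacteria, was at 22.5, 32.5 and 84.5 CPM and then at 3.62, 6.68 and 18.3 CPM, with no overlap (log2 fold change -2.22, SE 0.39, adjusted p = 0.000698). Clec4f, a Kupffer cell lectin, fell by 0.47 (SE 0.14), whereas Timd4, Vsig4 and Cd5l, markers of resident Kupffer cells, did not pass (-0.48, -0.20 and -0.22). Clec4f lost the call without adult number 6 (adjusted p = 0.0502). Of 11 erythroid genes tested 6 were lower and 1 higher. Slc4a1, the red cell anion exchanger, fell from 3.95, 7.86 and 30.1 CPM to 0.569, 1.16 and 3.22 CPM (log2 fold change -2.99, SE 0.51, adjusted p = 0.000485), and Hba-a1, an alpha globin, fell by 1.49 (SE 0.38). Alas2, which makes haem in red cell precursors, rose by 0.93 (SE 0.22). None of 8 T and NK cell genes tested passed.

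Lipid genes showed a sharp fall of lipoprotein lipase and a moderate one of fatty acid synthesis. Lpl, which releases fatty acids from circulating triglyceride and is on in young rather than adult liver (chr8:68880491-68907448), was at 187.3, 297 and 410.8 CPM at weaning and at 14.8, 19.6 and 25.9 CPM in adults (log2 fold change -3.86, SE 0.20, adjusted p = 7.33e-10). Among 17 tested targets of RXR and PPAR, the receptors that TBT activates, 5 were lower and 1 higher (3 higher without adult number 3 or 16, 2 without weanling number 8). Without weanling number 4, 4 were lower and 1 higher. Fabp4, a fatty acid carrier of fat cells and macrophages, fell by 2.27 (SE 0.28), while Cd36, Plin4 and Cidec did not pass (-0.65, -0.44 and 0.62). Cyp26a1, which degrades retinoic acid, rose by 4.40 (SE 0.99, adjusted p = 0.00451), with 25.8 CPM in adult number 6 and 0.664 to 3.97 CPM in the other 5, against at most 0.613 CPM at weaning.

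Of 20 lipogenesis genes 8 were lower and none higher (7 without number 4), and none of the 8 was free of overlap. The count was 5 without adult number 3 or weanling number 7, and 4 without adult number 7 or weanling number 1. Fasn, fatty acid synthase, was at 538, 1210 and 2922 CPM and then at 385.5, 491.8 and 884 CPM (log2 fold change -1.41, SE 0.40, adjusted p = 0.0152). Acly, which supplies its acetyl-CoA, fell by 1.41 (SE 0.35) and Acaca, acetyl-CoA carboxylase, by 1.16 (SE 0.24). Scd1, a desaturase, was spread from 1505 to 20552 CPM at weaning and from 4720 to 19999 CPM in adults and did not pass (0.01). Of 23 cholesterol synthesis genes 2 were lower and 1 was higher, Msmo1, a demethylase of the pathway, by 0.83 (SE 0.24). Msmo1 lost the call without adult number 3 or 16 (adjusted p = 0.0576 and 0.0562), and 4 genes of the list were lower without adult number 16, weanling number 6 or weanling number 8 (3 without adult number 3). Of 23 fatty acid oxidation and ketogenesis genes 3 were higher and 2 were lower, Cyp4a31 by 2.68 (SE 0.44) and Pdk4, an inhibitor of pyruvate dehydrogenase, by 2.30 (SE 0.62). The higher count was 8 without adult number 16 and 7 without weanling number 8, and 1 without any 1 of adult numbers 2 and 6 and weanling numbers 3 and 4, with 2 lower in each.

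Drug and bile acid genes shifted in both directions. Of 29 xenobiotic metabolism genes 11 were higher and 5 lower (10 and 5 without number 4). Cyp2e1, the ethanol-inducible P450 of pericentral hepatocytes, rose from 1807, 2827 and 6993 CPM to 5691, 7558 and 11658 CPM (log2 fold change 1.201, SE 0.30, adjusted p = 0.00645). Cyp3a11, the main P450 of the Cyp3a family and a target of the receptor PXR, went the other way, from 841.1, 1317 and 2105 CPM to 189.2, 547.3 and 686.5 CPM (log2 fold change -1.39, SE 0.27, adjusted p = 0.00109). Aox3, an aldehyde oxidase, rose by 1.72 (SE 0.16), and the glucuronosyltransferases Ugt2b38 and Ugt2b1 by 3.098 (SE 0.39) and 1.46 (SE 0.16). Of 16 Ugt genes tested 12 were higher and none lower. In bile acid synthesis and transport 6 of 18 were higher and 4 lower (6 and 3 without number 4). Baat, which conjugates bile acids to taurine, rose by 1.04 (SE 0.12), Cyp8b1, which makes cholic acid, by 0.998 (SE 0.17), and Slco1b2, an uptake transporter, by 0.996 (SE 0.16), whereas Slco1a4, another, fell by 1.56 (SE 0.18). Cyp7a1, the rate-limiting enzyme, was at 23.1 to 114.6 CPM and then at 24.1 to 343.6 CPM and did not pass (1.24, adjusted p = 0.107).

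Genes that hepatocytes express by position in the lobule moved apart. Of 14 pericentral genes 7 were higher and none lower (6 without number 4), with a median of 0.48, and of 17 periportal genes 1 was higher and 6 lower, with a median of -0.30. Oat, ornithine aminotransferase, rose from 174.8, 247.5 and 278.7 CPM to 467, 808.1 and 1234 CPM, with no overlap (log2 fold change 1.90, SE 0.19, adjusted p = 2.07e-06). Slc1a2, a glutamate transporter, rose by 1.51 (SE 0.29) and Cyp1a2, a P450 that metabolises caffeine, by 1.26 (SE 0.32), while Glul and Axin2, Wnt targets around the central vein, did not pass (0.39 and 0.04). On the periportal side Cdh1, E-cadherin, fell by 1.05 (SE 0.20), and the urea cycle enzymes Cps1 and Ass1 fell by 0.66 (SE 0.18) and 0.64 (SE 0.20), while Cyp2f2 rose by 1.05 (SE 0.25). Ass1 lost the call without weanling number 1 or 3 (adjusted p = 0.0537 and 0.0547). Of 20 glycolysis and gluconeogenesis genes 5 were lower and none higher. G6pc, glucose-6-phosphatase, fell by 0.99 (SE 0.26), Hk1, hexokinase 1, by 0.95 (SE 0.18), and Pklr, liver pyruvate kinase, by 0.89 (SE 0.29, adjusted p = 0.0334). Pklr lost the call without any 1 of adult numbers 3, 5, 7 and 16 or weanling numbers 1, 2, 4 and 7 (adjusted p = 0.055 to 0.0737). Pck1 did not pass (-0.03). Of 21 liver transcription factors 6 were higher and none lower (4 higher without number 4). Their called share of 28.6% was also near that of all genes. Nr5a2, a regulator of bile acid genes, rose by 0.55 (SE 0.11), whereas Hnf4a, which maintains hepatocyte identity, did not pass (0.09).

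Antigen presentation genes mostly rose, while plasma protein genes moved in both directions. Of 27 complement and coagulation genes 7 were higher and none lower (25.9% called, close to the 26.2% of all genes), and the late complement components led them. Without number 4, 7 were higher and 1 lower. C9 went from 89.2, 161.8 and 282.3 CPM to 415.5, 696.7 and 1002 CPM with no overlap (log2 fold change 2.16, SE 0.25, adjusted p = 1.34e-05), and C8a and C8b rose by 1.69 (SE 0.24) and 1.44 (SE 0.21). C3, the central component, did not pass (-0.15). Among general plasma proteins Ahsg, fetuin A, fell by 1.19 (SE 0.17) and Alb by 0.69 (SE 0.14), and Serpina1c, an antitrypsin, rose by 0.97 (SE 0.19). Of 17 MHC genes 12 were higher and none lower (11 without number 4). H2-Aa, an MHC class II chain, went from 10.4, 16.3 and 25.3 CPM to 27.2, 38.4 and 55.4 CPM (log2 fold change 1.21, SE 0.19, adjusted p = 0.000186). Cd74, the class II invariant chain, rose by 0.96 (SE 0.18) and B2m, the light chain of class I, by 0.67 (SE 0.15). Of 21 interferon-stimulated genes 2 were higher and 1 lower (14.3% called, below the 26.2% of all genes). Without adult number 16 these counts were 4 and 4, without adult number 3 they were 2 and 2, without weanling number 6 they were 1 and 3, and without adult number 7 or any 1 of weanling numbers 1, 2, 3, 7 and 8 they were 1 and 1.

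**Figure D3:**
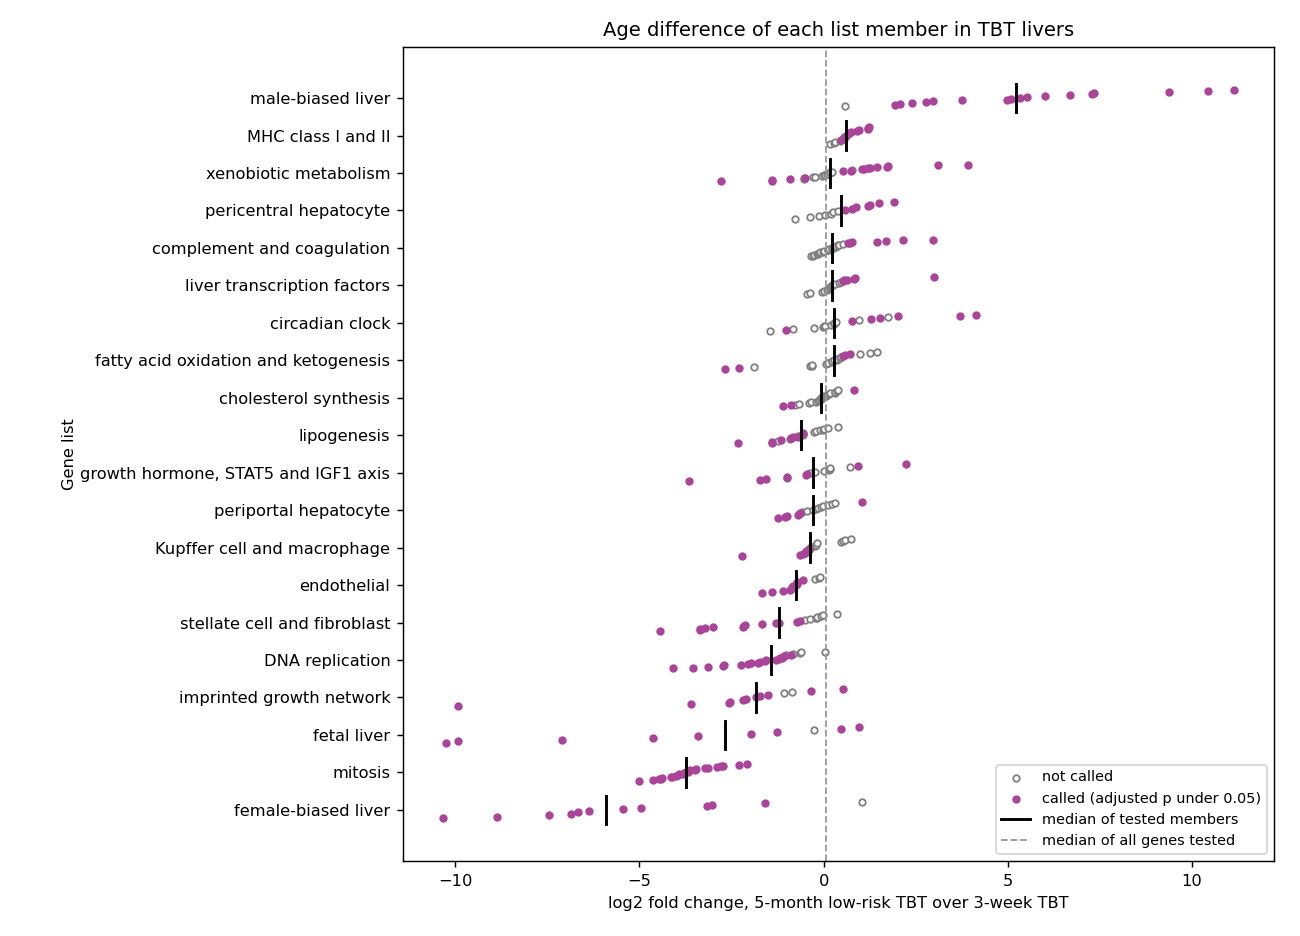
Log2 fold change of each tested member of the gene lists, 5-month low-risk TBT over 3-week TBT; filled points passed an adjusted p of 0.05, bars are list medians and the dashed line is the median of all genes tested (0.058). Male-biased genes lie at the right (median 5.21), and mitosis and female-biased genes at the left (medians -3.74 and -5.90).

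Several adult levels came largely from 1 liver. In adult number 2, cholangiocyte genes summed to 310 CPM, against 34.3 to 122 CPM in the other 5, and B and plasma cell genes to 238 CPM, against 21.9 to 43.8 CPM. Epcam, a bile duct adhesion protein, was at 93.4 CPM in that liver and at 0.670 to 2.68 CPM in the other 5, and Krt19, a duct keratin, at 76.4 CPM against 0.536 to 1.49 CPM. Epcam rose by 3.01 with all livers (adjusted p = 0.0427), lost the call without any 1 weanling (adjusted p = 0.0591 at the lowest, and 0.074 without number 4), and was at -0.30 without adult number 2 (adjusted p = 0.542). Krt19 did not pass with all livers (2.10, adjusted p = 0.196) and was lower in adults without number 2 (-1.90, adjusted p = 0.0187). Igha, the heavy chain of IgA, was at 135.3 CPM in number 2 and at 2.01 to 3.95 CPM in the other 5 adults, all above the weanlings, which reached 0.700 CPM. It rose by 6.25 (SE 1.29, adjusted p = 0.00318) and by 3.11 without number 2 (adjusted p = 0.0015). Jchain, which joins IgA into dimers, rose by 3.15 with that liver and by 1.45 without it (adjusted p = 0.00756 and 0.0473).

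Adult number 3 led the acute phase proteins, made by hepatocytes in inflammation. Its acute phase and iron genes summed to 59733 CPM, against 11397 to 20194 CPM in the other adults, and its neutrophil and myeloid precursor genes to 104.2 CPM, against 1.42 to 6.36 CPM. Saa1, serum amyloid A1, was at 12.6, 17.1 and 71.9 CPM at weaning and at 36.7, 347 and 5999 CPM in adults, with 5999 CPM in number 3 and 1033 CPM next. Saa1 rose by 5.64 (SE 1.10, adjusted p = 0.00222) and by 3.79 without number 3 (adjusted p = 0.0039). Saa2 rose by 7.17 (SE 1.24) and by 5.10 without it, and Orm2, an orosomucoid, by 4.88 (SE 1.01) and by 2.93 without it. Orm1 rose by 3.06 (SE 0.59) and Hamp, hepcidin, which limits iron uptake, by 2.63 (SE 0.85, adjusted p = 0.0374), while Tfrc, the transferrin receptor, fell by 1.84 (SE 0.35). The call of Hamp was lost without any 1 of adult numbers 6, 7 and 16 or weanling numbers 1, 2, 3, 6 and 8 (adjusted p = 0.0507 to 0.0763). Lcn2, a neutrophil and hepatocyte siderophore binder, did not pass (3.24, adjusted p = 0.0585). Of 20 acute phase and iron genes 7 were higher and 2 lower, and 5 were higher and 5 lower without adult number 3. Without weanling number 4, 5 were higher and 2 lower.

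Clock genes separated adult number 16 from the others. Dbp, a clock output factor (chr7:45705088-45710203), was at 0.455 CPM in that liver and at 39.0 to 94.0 CPM in the other 5 adults, against 1.87 to 10.2 CPM at weaning. Arntl, the clock activator BMAL1 that runs opposite to Dbp, was at 45.9 CPM in number 16 and at 1.47 to 7.67 CPM in the other 5, against 20.1 to 47.3 CPM at weaning. Dbp rose by 3.70 with number 16 (SE 0.70, adjusted p = 0.00173) and by 3.94 without it. Arntl did not pass with number 16 (-1.46, adjusted p = 0.0885) and was at -2.72 without it. Nr1d1, the repressor of Arntl, rose by 2.02 (SE 0.29), Nr1d2 by 1.30 (SE 0.30), Tef by 1.52 (SE 0.39) and Bhlhe41, another clock repressor, by 4.14 (SE 0.60). Of 19 clock genes 6 were higher and 1 lower, and 5 were higher and 4 lower without number 16. None was lower without any 1 of the other 5 adults or of weanling numbers 1, 2, 3, 4 and 7, with 6 higher. The times of day at which the livers were taken are not given in the sources used here, so age and time of day cannot be told apart for these genes.

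**Figure D4:**
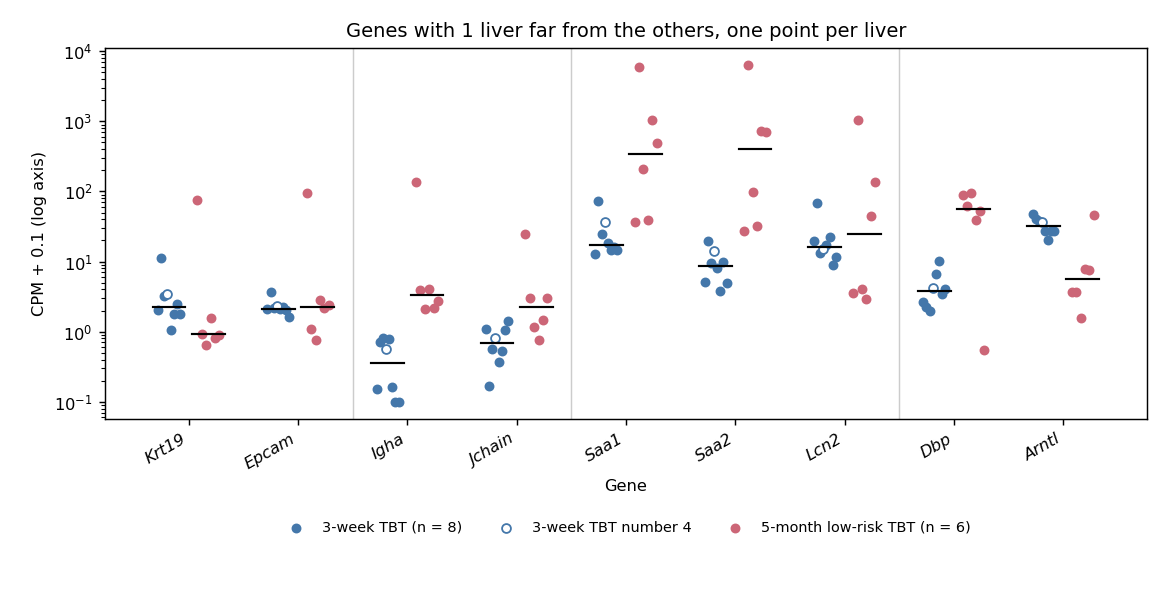
Levels of duct, immunoglobulin, acute phase and clock genes in each liver, in CPM plus 0.1 on a log axis; filled points are livers, open circles are 3-week TBT number 4 and bars are group medians. The single high adult points are number 2 for Krt19, Epcam, Igha and Jchain (135.3 CPM for Igha), number 3 for Saa1, Saa2 and Lcn2 (5999 CPM for Saa1) and number 16 for Arntl (45.9 CPM).

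The same span of age was then read in the vehicle livers of batch 1. Of 15304 genes in a fit over all 4 groups, 1293 (8.45%) were higher and 1457 (9.52%) lower in 5-month than in 3-week vehicle livers. The 5-month vehicle library number 9 held 2.83 M counts, against at least 19.47 M counts in the rest of its group, and had 38206 genes detected. Without it 4220 genes were called in the vehicle comparison. The vehicle counts and shares in this paragraph include it. The TBT and vehicle comparisons share no library. Over the 14069 genes tested in both, 1929 were called in both, which is 52.3% of the TBT calls and 71.9% of the vehicle calls, and 1928 of these had the same sign. Across genes, which are not independent replicates, the log2 fold changes had Pearson r = 0.823 and Spearman rho = 0.691. Of 18 male-biased genes 17 were higher in adult vehicle livers too (median 4.74), and of 12 female-biased genes 10 were lower (median -4.68). All 25 mitosis genes were lower in vehicle (median -2.49), as were 13 of 21 stellate cell and 13 of 15 endothelial genes (medians -0.91 and -0.71). Other lists had different counts. Of 19 clock genes 1 was higher and 3 were lower in vehicle, against 6 and 1 in TBT livers. Of 14 pericentral genes 3 were higher and 2 lower, against 7 and none, and of 17 periportal genes 2 were higher and 2 lower, against 1 and 6. Of 17 Kupffer cell and macrophage genes 3 were higher and 5 lower, against none and 6, and of 21 liver transcription factors 1 was higher, against 6. No member of these 5 lists passed the test of the difference between the age changes. In it 5 of the 19 clock genes had an unadjusted p under 0.05, against 880 of the 14069 genes tested in both. Single members differed in size: Sult2a1 fell by 10.34 in TBT and by 10.20 in vehicle livers, H19 by 9.93 and by 6.30, and Igfbp1 by 3.64 and by 1.58. Cyp4a12a rose by 7.28 in TBT and by 12.03 in vehicle livers. No 3-week vehicle liver held more than 1 count of it, so single counts set the 12.03. The 3-week TBT livers number 1 and 2 held 67 and 39 counts.

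The 5-month vehicle livers number 4 and 6 stood apart from most of their group. H19 was at 3.03 and 18.5 CPM in them and at 4.24 CPM in number 9, against 0.421 to 0.841 CPM in numbers 1, 2, 3 and 5. Female-biased genes summed to 191.3 and 174.7 CPM in numbers 4 and 6, against at most 56.03 CPM in the other 5. Mitosis genes summed to 226.6 CPM in number 4, 69.3 CPM in number 6 and 96.4 CPM in number 9, against at most 23.6 CPM in the rest. Gpnmb, a glycoprotein of macrophages, was at 28.2 and 91.8 CPM in numbers 4 and 6 and at most 5.79 CPM in the other 5. Without both livers (left out because of these values), H19 fell by 8.58 and Igfbp1 by 2.29 in vehicle livers, the mitosis median was -4.09, and 2679 genes were called. Pericentral genes were then 5 higher and none lower, periportal genes 1 higher and 3 lower, Kupffer cell and macrophage genes none higher and 6 lower, clock genes 3 higher and 3 lower, and liver transcription factors 3 higher.

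The difference between the 2 age changes was itself tested, and 1 of 15304 genes (0.00653%) passed. Hpgd, which inactivates prostaglandins (ENSMUSG00000031613, chr8:56294585-56321043), was at 65.5 to 109.5 CPM in 3-week TBT and 63.4 to 106.8 CPM in low-risk TBT livers, so those groups overlapped fully. In vehicle livers it was at 88.2 to 121.5 CPM at 3 weeks and 25.4 to 55.5 CPM at 5 months, with no overlap. Its age change was -0.10 in TBT and -1.29 in vehicle livers, a difference of 1.19 on the log2 scale (SE 0.21, adjusted p = 0.0457). That call rests close to the threshold: no gene passed in 20 of the 28 fits that left out 1 library, that without the library labelled 3-week TBT 4 among them (827 genes had an unadjusted p under 0.05), with another scaling of the libraries, or without 5-month vehicle numbers 4 and 6 (Hpgd difference 1.01, adjusted p = 0.159). For H19, Igfbp1 and Cyp4a12a the differences did not pass the adjustment (unadjusted p = 0.0042, 0.0026 and 0.0082). Among genes with a lower age change in TBT than in vehicle livers, the smallest unadjusted p-values of this test did not pass either. They were those of Rnf144a, a ubiquitin ligase (0.00016), Hr, a nuclear corepressor (2.9e-05), Dhrs9, a retinol dehydrogenase (0.00013), and Adat2, a tRNA deaminase (0.00022). Genes with a higher age change in TBT livers, apart from Hpgd, are not listed here. Hr had 200 and 168 counts in 5-month vehicle numbers 4 and 6, and at most 35 in numbers 1, 2, 3 and 5. Number 9 had 17 counts, but in a library of only 2.83 M counts, so its count cannot be set directly beside the others. At an unadjusted p under 0.05 there were 985 genes.

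**Figure D5:**
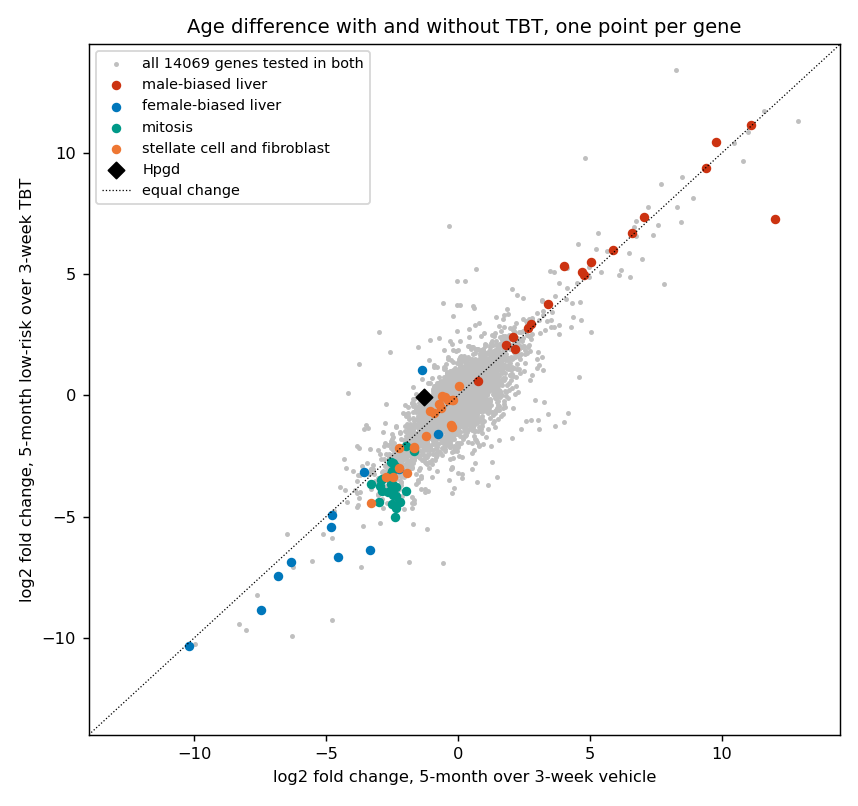
Log2 fold change with age of 14069 genes in vehicle livers (x axis, 5-month over 3-week vehicle) and in TBT livers (y axis, 5-month low-risk over 3-week TBT); coloured points are gene lists, the diamond is Hpgd and the dotted line marks equal change. Male-biased genes have medians of 4.74 in vehicle and 5.21 in TBT livers and female-biased genes of -4.68 and -5.90, with single members such as Cyp4a12a (12.03 and 7.28) far from the dotted line. Cyp4a12a had at most 1 count in any 3-week vehicle liver, so its 12.03 is uncertain. Hpgd at -1.29 in vehicle and -0.08 in TBT livers lies off it. The TBT values are those of the fit of the TBT groups alone, and the vehicle values those of the fit over 4 groups.

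The 10 low-risk livers of sequencing batch 2 were set against the same 3-week livers, with which they share the weanling values, and batch and age then move together. Mup20 was at 288.4 to 14980 CPM and Cyp2d9 at 709.1 to 1346 CPM in these livers, and Mki67 at 4.63 to 12.7 CPM, Eln at 2.70 to 6.64 CPM and Lpl at 27.9 to 66.8 CPM. The last 3 again lay below every weanling. The liver labelled number 24 stood apart: its Sult2a1 level was 204.5 CPM, against at most 0.0772 CPM in the other 9, its H19 level 672.2 CPM against at most 14.6 CPM, and its Cyp2b9 level 55.2 CPM against at most 5.90 CPM. Its Xist level was 84.6 CPM, with 237.2 CPM over 4 Y-linked genes. The log2 fold change of Sult2a1 was -1.76 with number 24 (adjusted p = 0.38) and -11.89 without it (adjusted p = 8.7e-13), and that of H19 was -2.46 (adjusted p = 0.204) and -6.52 (adjusted p = 3.83e-05). Leaving it out was chosen after its values were seen. Fasn, Cyp3a11 and Afp did not pass in batch 2 (-0.39, -0.71 and -1.14, adjusted p = 0.564, 0.0556 and 0.114), nor did Cd74 (0.43, adjusted p = 0.134) or Dbp (2.13, adjusted p = 0.0657). Hpgd was at 54.4 to 115.5 CPM there. In all, 39 of 161 named calls were lost in batch 2, and 31 without number 24. Hsd3b1 reached 19.28 CPM in number 26 and lost the call with and without number 24 (-2.70 and -2.64, adjusted p = 0.0514 and 0.0586). The calls of Stat5a, Stat5b, Acaca, Acly, Pdk4, Hba-a1 and Slc4a1 were among those lost, with log2 fold changes from -1.01 for Pdk4 to -0.10 for Stat5b (adjusted p = 0.203 and 0.651).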

How the data were processed

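Liver RNA (RNeasy, DNase, TruSeq Stranded Total RNA, per the labels' protocols) was sequenced from 75 libraries. The authors trimmed with Trim Galore, aligned to mm10 with HISAT2 and counted with featureCounts, per the submitters' processing notes. The authors deposited 1 table of whole-number gene counts, named as adjusted between batches with ComBat-seq. Versions, the strand setting and the groups given to ComBat-seq are not given in the sources used here, so reads of overlapping genes cannot be told apart, and levels across batches carry that adjustment. The counts of 55536 genes carried a name, and all IDs matched GENCODE M21 (GRCm38), from which positions were taken.

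The counts as deposited went into edgeR's quasi-likelihood test (version 4.0.16, R 4.3.3) after TMM scaling and filterByExpr, with a robust fit, Benjamini-Hochberg adjustment and a threshold of 0.05. The 6 and 8 TBT libraries were fitted alone. The 4 groups of batch 1 were fitted together for the vehicle and interaction contrasts, with the 2 libraries of 3-week vehicle mouse 3 summed. Each SE was derived from the fold change and its F statistic. Printed CPM use the TMM scaling of the fit over 4 groups. The Mup sum was tested by exact permutation in R. Spearman's rho was computed in Python 3.11.15 with scipy 1.17.1. Intervals (95%) and the floor of 3 counts over a group were computed on the deposited counts. They cover counting error only and leave out any effect of the ComBat-seq adjustment on those counts. Figures were drawn with matplotlib 3.10.9.

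On simulated counts with 200 changed genes among 16136, edgeR recovered 149 with 5 false calls in the main comparison, and 116 with 5 false calls among 16023 genes for the interaction. The simulation gave every gene the same dispersion, held no distant livers, and had changes smaller than the largest ones above. These figures are therefore not the error rates of the comparisons above. Named genes were the 12 highest and 12 lowest protein-coding calls with a mean of at least 5 CPM in the higher group and every library on its own side of the other group's mean, and the opening 4 and up to 3 further called members of each of 33 gene lists. Selenbp2, Acot3, Zbtb20, Zhx2, Slc38a4 and Gpnmb were named after their values were seen. The comparison and the lists were chosen with earlier results of these data known. Alternatives were RLE scaling, no filter, DESeq2 1.42.0, protein-coding genes, libraries left out, a replicate block, a shared spread, high-risk livers added, and batch 2. Results on some genes of the lists are not reported here.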

Additional observations from a re-analysis of the deposited data

Results flagged for a closer look

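Of 110 sets of livers checked for a single distant value, 26 held one. Chance gives about 1 in 20 for normally distributed values, which CPM were not shown to be. Of these, 6 lay in the 5-month low-risk liver number 2, 4 in number 3 and 3 in number 16.

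In low-risk number 2 the distant values were 135.3 CPM for Igha, 24.8 CPM for Jchain, 76.38 CPM for Krt19, 93.44 CPM for Epcam, 20.05 CPM for Mki67 and 0.7111 CPM for Cyp2b9. In low-risk number 3 they were 5999 CPM for Saa1, 6422 CPM for Saa2, 1050 CPM for Lcn2 and 18.26 CPM for Marco. In low-risk number 16 they were 45.85 CPM for Arntl, 4511 CPM for Mup20 and 0.3977 CPM for Igf2, and in low-risk number 6 they were 25.77 CPM for Cyp26a1 and 0.07449 CPM for Hsd3b1, which is 1 count.

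Among the 3-week livers, number 4, the library that went against its male label, held 227.5 CPM of Mki67 and 105.2 CPM of Pcna. Number 2 held 71.88 CPM of Saa1, 67.21 CPM of Lcn2, 10.96 CPM of Krt19 and 3.587 CPM of Epcam. Number 1 held 163.4 CPM of Tfrc and 1.395 CPM of Moxd1. The other distant values were 84.47 CPM of Marco in number 3, 2348 CPM of Igfbp1 in number 5 and 77.11 CPM of Cyp3a16 in number 6.

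The age change of Hpgd differed between TBT and vehicle livers by 1.194 on the log2 scale in edgeR's interaction test (adjusted p = 0.0457).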

How the results depend on the processing

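The 3687 calls of the TBT age comparison stayed within 1.5 times of that count under 10 alternatives and moved beyond it when the 3 high-risk livers of batch 1 were added (2158). Leaving out 1 library at a time gave 2975 (without 3-week number 4) to 4521 (without low-risk number 16). The split moved from 1931 higher and 1756 lower to 1274 and 1701 with no filter on low counts, where the median of all genes was -0.33, and to 1784 and 2322 with DESeq2. Leaving out low-risk number 16 and 3-week number 4 together (3938 calls) and number 24 of batch 2 (3663 calls) was chosen after the data were seen, as was a fit of the vehicle groups alone (2627 calls). The 2750 vehicle calls moved to 1708 with no filter, to 4915 without technically deviating libraries and to 4588 with the replicate block, and leaving out 1 library gave 2217 to 4220 (without vehicle number 9). The interaction went from 1 gene to 0 with RLE scaling, no filter, protein-coding genes only, the replicate block, the high-risk livers added and vehicle numbers 4 and 6 left out, to 2 with DESeq2 and to 6 without technically deviating libraries. Leaving out 1 library gave 0 to 3. The Mup sum difference ranged from 5.75 to 6.45.

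With the replicate number as a block, 2767 genes were called, 2376 of them shared. Correlations of same-numbered livers were 0.0289, 0.266, 0.0904, -0.0428 and -0.0116 for numbers 2, 3, 5, 6 and 7, which did not show pairing by number.

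Of 161 named genes that passed, 73 lost the call under at least one alternative. Signs changed for Cldn7 (-0.09656), Krt19 (-1.899) and Epcam (-0.2964) without low-risk number 2 (leaving out other livers gave up to 3.863, 2.679 and 3.251), for Epcam with batch 2 (-0.3209, or -0.4435 without number 24), and for Pkhd1 (0.2214) and Cyp3a11 (0.02125) with the high-risk livers added. The cause was not tested. With those livers 32 named calls were lost, among them Mki67 (-1.94, adjusted p = 0.058), Cyp2a4 (-2.01, adjusted p = 0.2), Ccnb1, Cdk1, Kif20a, Col1a1, Cyp2e1 and Cyp27a1. Depth limits genes near 0, where single counts set the fold.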

Other observations

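Replication-dependent histone transcripts lack poly(A) tails, and total RNA libraries retain them because they are not selected for such tails. Most of these genes were lower in adults. Of 46 Hist genes tested 36 were lower and 1 higher at 5 months, with a median log2 fold change of -1.98. The summed level of the family overlapped between the groups, at 396.1 to 1200 CPM at 3 weeks and 298.8 to 515.4 CPM at 5 months. In vehicle livers 39 were lower and 1 higher. Sulfotransferases moved in both directions, with 3 of 11 higher and 8 lower. Cytoplasmic ribosomal protein genes were nearly flat, with 4 of 81 higher and 1 lower and a median of 0.013. Collagen genes fell by a median of 1.94 in TBT and 0.46 in vehicle livers, with 19 of 31 and 11 of 31 called lower. The difference between the 2 was not tested as a group. Their summed level was closer between the 2, with medians of 3239 CPM at 3 weeks and 1634 CPM at 5 months in TBT livers. In vehicle livers these medians were 2875 and 1721 CPM.

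Skeletal muscle and adipocyte marker genes summed to 131.6 CPM in 3-week number 7 and to at most 3.79 CPM in the other 13 livers, and none of the 9 was tested. Pancreatic acinar genes summed to 0.80 to 23.4 CPM at 3 weeks and 0.30 to 12.2 CPM at 5 months. On the X chromosome 85 of 414 genes tested were lower and 41 higher, against 1756 lower and 1931 higher over all chromosomes. In vehicle livers 85 were lower and 22 higher. The 3-week TBT group holds the Xist-high library number 4, whose part in the X-linked counts was not tested.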
